A study of Mus musculus with 4 samples.

Results

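Expression of 10 genes for secreted and matrix proteins was followed in mouse Th2 cells with and without Menin. Spp1, Ecm1, Col18a1, Esm1, Igfbp4, Igfbp7, Areg, Vegfa, Timp1 and Timp2 are 10 of the 23283 gene symbols in the deposited tables. Each was taken by its symbol, and all 10 passed the minimum for comparison, a mean of 1 FPKM over the 4 libraries, as did 10973 symbols in all. FPKM scales fragment counts by library depth and transcript length, so levels can be compared between genes. Spp1, Igfbp4, Esm1, Col18a1 and Ecm1 were picked because of their genotype pattern in these same libraries. Their differences between KO and WT are therefore a description and lend support to nothing.

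Th2 cells are CD4 helper T cells that make IL-4, IL-5 and IL-13. The cells were grown from splenic CD4 T cells of C57BL/6 mice, wild type (WT) or Menin KO (KO), with 15 ng/ml of IL-2 plus 10 ng/ml of IL-4. The 5-day groups were taken after 5 days under these conditions. The groups named as 3 weeks had the same 5 days, then 2 days with no added cytokine, then 5 days on immobilized anti-TCR, which binds the T cell receptor, in the presence of IL-2 and anti-IL-4. These steps do not add up to 3 weeks. The sample titles call the 5-day groups 1st and the 3-week groups 3rd, and the sources used here do not say whether steps were repeated. The sources used here do not say how Menin was deleted, how old the mice were or whether animals were pooled. Each combination of genotype and culture, 4 in all, was 1 library, so no value has a replicate error, no test was made and no p-value is given.

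Osteopontin (Spp1), ECM1 and endocan (Esm1) are secreted proteins that sit in or near the extracellular matrix and act on cells, and collagen XVIII (Col18a1) is a proteoglycan of basement membranes whose end fragment is endostatin. Insulin-like growth factor binding proteins hold growth factors outside the cell, amphiregulin (Areg) and VEGF-A (Vegfa) are growth factors that bind receptor tyrosine kinases, and TIMP proteins block matrix metalloproteases. In T cells, osteopontin is known as a cytokine of Th1 responses, amphiregulin as a tissue repair factor, and ECM1 as a factor that lets Th2 cells leave lymph nodes. Menin works on chromatin as a component of Trithorax group complexes.

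Inferred depth was 20.7 to 23.5 M reads per library. Men1, the gene of Menin (chromosome 19, 6334979 to 6340891), had 31.5% of its WT FPKM in KO at 5 days and 23.1% at 3 weeks, which goes with the labels. The CD4 T cell markers Cd3e, Cd3d, Cd4 and Gata3 were abundant in all 4 libraries and summed to between 604 and 896 FPKM. Gata3 stood at 72.8 FPKM (WT) and 69.8 (KO) at 5 days and 93.8 (WT) and 45.9 (KO) at 3 weeks. At 3 weeks Gata3 was thus lower in KO, while Cd3e, Cd3d and Cd4 were higher. NK cell markers (3 genes) summed to 0.119 FPKM (WT) and 1.75 (KO) at 5 days and 0.0174 (WT) and 2.10 (KO) at 3 weeks. CD8 T cell markers (2 genes) summed to 4.38, 5.70, 2.04 and 3.77 FPKM in the same order. Both sums were higher in KO at each time, and the part of such cells in the values below was not tested. Fibroblast and stromal markers (7 genes) summed to between 1.63 and 4.70 FPKM, and endothelial markers (5 genes) to between 27.2 and 47.9 FPKM. Nearly all of the endothelial sum was Pecam1 (46.7, 47.8, 39.2 and 27.2 FPKM in WT 5-day, KO 5-day, WT 3-week and KO 3-week), and Cdh5, Tek, Vwf and Kdr each stood at 0.0464 FPKM or below. Positions below are from GENCODE M21 on GRCm38, the assembly that mm10 names. Intervals in parentheses after a ratio are exact Clopper-Pearson 95% intervals from the approximate reads that the FPKM values imply, and cover counting error only.

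**Figure D1:**
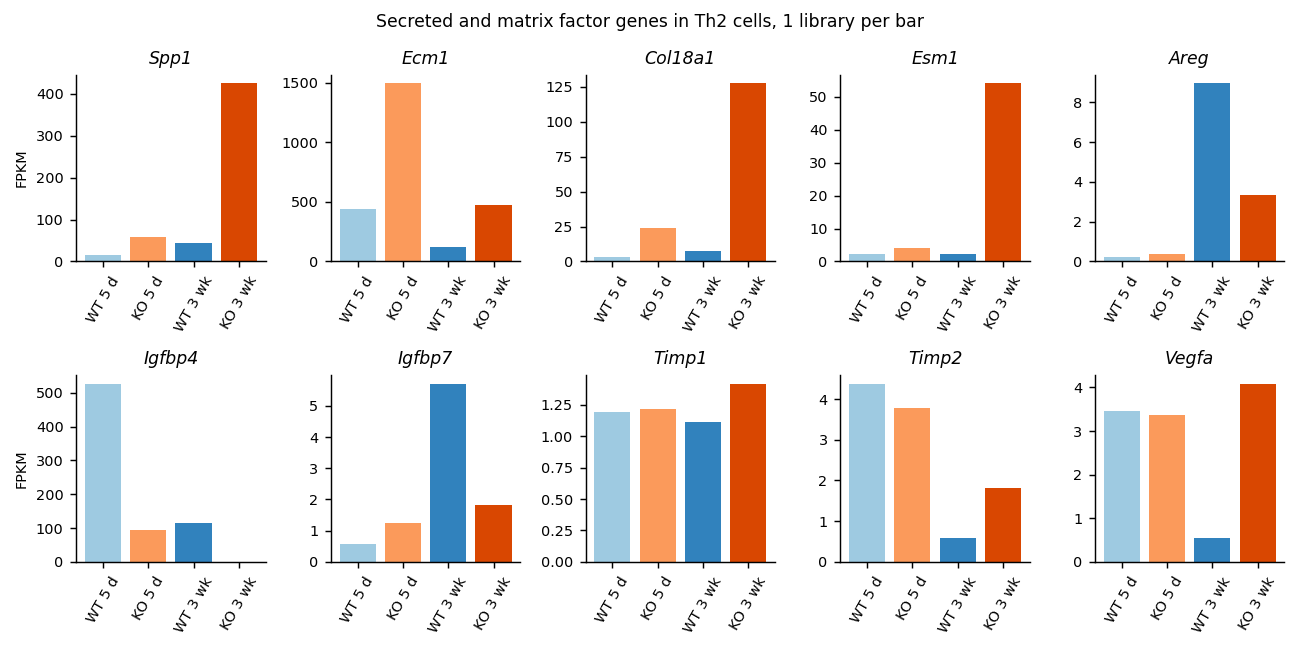
FPKM of the 10 genes in each of the 4 libraries (WT or KO at 5 days, WT or KO at 3 weeks), 1 bar per library, with a vertical scale of its own for each gene. Spp1, Col18a1 and Esm1 were highest in KO 3-week (424, 127 and 54.1 FPKM), Ecm1 in KO 5-day (1494 FPKM) and Igfbp4 in WT 5-day (527 FPKM).

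The 10 genes did not follow one pattern. At 5 days 3 of the 10 (Spp1, Ecm1 and Col18a1) were at least 2-fold higher in KO and 1 (Igfbp4) was at least 2-fold lower, where 2.77% and 0.82% of the 10973 compared genes were. At 3 weeks 5 of the 10 (Spp1, Ecm1, Vegfa, Esm1 and Col18a1) were higher and 3 (Igfbp4, Igfbp7 and Areg) were lower, where 7.97% and 8.19% of all compared genes were. The same shares are the background for the genotype counts of gene lists and neighbours below. Counts use log2((KO + 1)/(WT + 1)) of FPKM, called at 1 in size, a scale that understates the ratio of weakly expressed genes. The median of the 10 on this scale was 0.32 at 5 days and 1.27 at 3 weeks, beside medians of -0.02 and -0.08 over all compared genes. Of all genes past 2-fold at 3 weeks 49.3% were higher in KO, and 60.4% with upper-quartile or 58.5% with median-of-ratios scaling, under which every member kept its call. Since 5 of the 10 were chosen on these contrasts, the counts are printed beside the background and nothing is read from them. In bulk RNA, fewer cells that express a gene and less RNA per cell cannot be told apart.

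Osteopontin RNA stood higher in KO at both times and was most abundant in the longer KO culture. Spp1 (chromosome 5, 104435118 to 104441050, plus strand) was measured at 14.7 FPKM (WT) and 58.7 (KO) at 5 days and 44.2 (WT) and 424 (KO) at 3 weeks. Both KO libraries lay above both WT libraries, and within each genotype the longer culture lay above the shorter one. The KO to WT ratio of FPKM was 4.0 at 5 days (3.58 to 4.46) and 9.59 at 3 weeks (9.07 to 10.2). Among the 23283 symbols Spp1 ranked 4850th from the top in WT 5-day, 1311th in KO 5-day, and in the longer culture 1862nd (WT) and 151st (KO). The summed FPKM of 6 macrophage and monocyte markers, cells that also make osteopontin, was 4.57, 10.8, 3.53 and 15.3 in the same order, most of it Cd68 (3.98, 8.35, 3.25 and 12.9 FPKM). Cd14 was listed at 0 in WT 5-day and stood at 0.509, 0.0978 and 2.03 FPKM in the others, highest in KO 3-week as Spp1 was, and Emr1 stood at 0.440, 1.82, 0.0693 and 0.364 FPKM, higher in KO at both times. The growth factor receptor gene Csf1r was 0.0130 FPKM in WT and 0.0120 in KO at 5 days, and was listed at 0 in both longer cultures. The lysozyme gene Lyz2 stood at 0.112, 0.154 and 0.0989 FPKM and was listed at 0 in KO 3-week, and Mrc1 reached at most 0.0187 FPKM. The part of such cells in the Spp1 values was not tested.

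Ecm1 was the most abundant of the 10 in every library but WT 5-day, where Igfbp4 stood above it. Ecm1 (chromosome 3, 95734147 to 95739569, minus strand) stood at 437 FPKM (WT) and 1494 (KO) at 5 days and 118 (WT) and 474 (KO) at 3 weeks. Here each KO library lay above the WT library of its own time, but WT 5-day and KO 3-week were close to each other. The KO to WT ratio was 3.42 at 5 days (3.36 to 3.48) and 4.01 at 3 weeks (3.89 to 4.15), so the genotype ratio was of like size at both times while the level itself was lower in the longer culture. In KO 5-day, Ecm1 ranked 29th of all symbols and made up 88.7% of the summed FPKM of the 10 genes, against 38.9% to 43.9% in the 3 other libraries.

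Col18a1 and Esm1 differed in when the genotypes came apart. Col18a1 (chromosome 10, 77052178 to 77166548, minus strand) stood at 3.06 FPKM (WT) and 24.0 (KO) at 5 days and 7.40 (WT) and 127 (KO) at 3 weeks. Both KO libraries were above both WT libraries, with ratios of 7.82 at 5 days (7.0 to 8.78) and 17.2 at 3 weeks (16.1 to 18.4). Epithelial markers (4 genes) summed to 4.26, 11.5, 4.65 and 16.0 FPKM in the same order, most of it Epcam (3.19, 8.62, 3.54 and 14.6), and Cdh1 (0.114, 0.302, 0.0200 and 0.789) was likewise higher in KO at both times. The keratin gene Krt18 stood at 0.919, 2.60, 1.06 and 0.656 FPKM, higher in KO at 5 days alone, and Krt8 reached at most 0.0299 FPKM. Their part in the Col18a1 values was not tested. Esm1 (chromosome 13, 113209659 to 113218098, plus strand) stood at 2.24 FPKM (WT) and 4.0 (KO) at 5 days and 2.38 (WT) and 54.1 (KO) at 3 weeks. For Esm1 a single library, KO 3-week, was far above the rest, and the 3 others lay between 2.24 and 4.0 FPKM. Its KO to WT ratio was 1.78 at 5 days (1.37 to 2.33) and 22.8 at 3 weeks (18.8 to 28.0). On the log2(FPKM + 1) scale the genotype difference of Esm1 was larger at 3 weeks by 3.40, which made it the 1 member past the 4-fold mark in that direction, beside 1.26% of all compared genes. That difference was not tested.

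**Figure D2:**
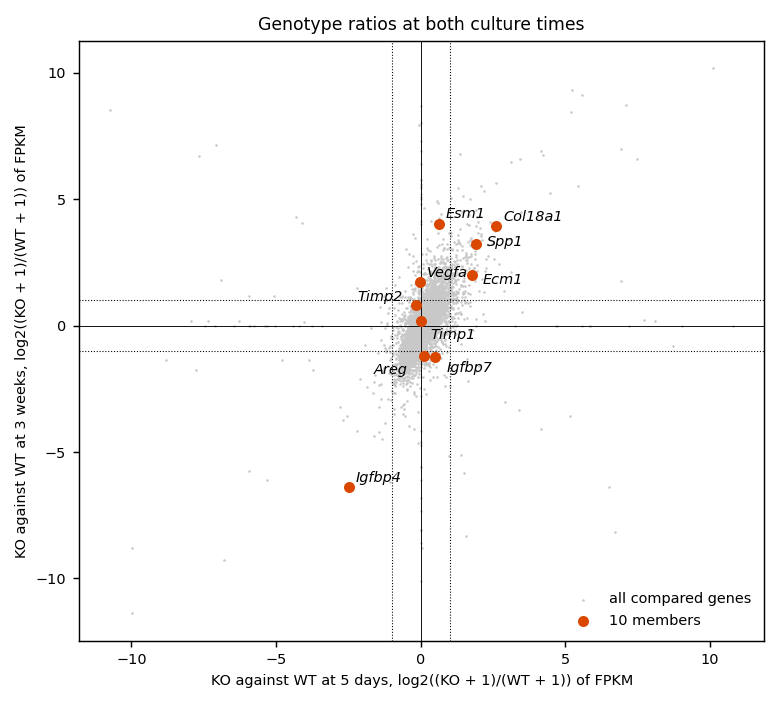
Each point is a gene, placed by its KO against WT ratio at 5 days (horizontal axis) and at 3 weeks (vertical axis), both as log2((KO + 1)/(WT + 1)) of FPKM, with grey for the 10973 compared genes and orange for the 10 members. Dotted lines mark 2-fold, and Igfbp4 is the member farthest down (-2.48 and -6.40), while Col18a1 (2.62 and 3.93) and Spp1 (1.93 and 3.23) lie at the upper right.

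The sequence before the start of 4 of these genes is shown because their RNA stood apart between the genotypes at both times, so a reader may want to see what lies there. The 250 bases before each RefSeq start (GRCm38.p6) were searched on both strands for the letters of 7 motifs. These were AP-1 (TGANTCA), Runx factors (TGTGGT), the GATA factors (AGATAA), Ets factors (AGGAAG), T-box factors (GGTGTGA), the hypoxia response element (ACGTG) and the TATA box (TATAAA). The matches shown do not overlap. All 10 genes matched the promoter table. Each line below runs 5′ to 3′ in the direction of the gene and ends at the base before the start. Capitals mark any match to a searched motif. Spp1 is from chr5:104434861-104435110 on the plus strand, Ecm1 from chr3:95739570-95739819 on the minus strand, Col18a1 (its inner start) from chr10:77113706-77113955 on the minus strand, and Igfbp4 from chr11:99040994-99041243 on the plus strand.
Spp1: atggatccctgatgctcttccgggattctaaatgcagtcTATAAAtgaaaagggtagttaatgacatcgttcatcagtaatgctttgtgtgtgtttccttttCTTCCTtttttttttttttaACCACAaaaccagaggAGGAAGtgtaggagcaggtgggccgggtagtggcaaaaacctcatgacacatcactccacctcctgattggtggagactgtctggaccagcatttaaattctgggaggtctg
Ecm1: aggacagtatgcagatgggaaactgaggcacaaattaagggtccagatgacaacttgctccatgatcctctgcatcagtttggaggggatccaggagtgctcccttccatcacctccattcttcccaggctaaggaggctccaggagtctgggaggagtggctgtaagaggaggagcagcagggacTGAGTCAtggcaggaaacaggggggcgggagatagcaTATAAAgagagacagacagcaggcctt
Col18a1: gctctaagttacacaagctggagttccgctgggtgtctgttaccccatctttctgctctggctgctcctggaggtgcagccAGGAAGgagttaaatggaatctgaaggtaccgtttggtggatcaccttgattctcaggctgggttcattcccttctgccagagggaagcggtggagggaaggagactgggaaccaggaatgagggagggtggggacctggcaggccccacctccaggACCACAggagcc
Igfbp4: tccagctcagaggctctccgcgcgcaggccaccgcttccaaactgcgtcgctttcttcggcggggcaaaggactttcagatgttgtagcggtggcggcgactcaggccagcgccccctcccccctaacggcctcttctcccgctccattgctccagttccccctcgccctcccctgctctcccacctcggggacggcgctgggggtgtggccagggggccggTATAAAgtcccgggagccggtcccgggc

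The Spp1 window held Runx letters 128 to 123 bases before the start, Ets letters 148 to 143 and 112 to 107 bases before it, and TATAAA 211 to 206 bases before it. The window at a second Spp1 start (chr5:104435942-104436191) held Ets letters 161 to 156 bases before it, no other searched motif, and a GC content of 35.6%. The inner Col18a1 window held Runx letters 12 to 7 bases and Ets letters 169 to 164 bases before the start, whereas the window at its outer start, on the same chromosome, held none of the 7 motifs. Ecm1 held AP-1 letters (64 to 58 bases before the start) and TATAAA (27 to 22), and Igfbp4 held TATAAA (28 to 23) and no other. Of all 32851 promoter windows of this length, 14.05% held the Runx letters, 29.5% Ets, 6.75% AP-1, 9.99% GATA, 3.33% T-box, 16.6% hypoxia and 12.4% TATA letters. The 10 genes had 13 windows. TATAAA on the gene's strand within 40 bases of the start was found in 3 of these (Ecm1, Igfbp4 and Areg, 1 each) and in 2.31% of all windows. The Igfbp4 window had 22 CpG pairs and a GC content of 69.2%, the Ecm1 window 1 pair and 54%, and the Spp1 window 3 pairs and 43.6%, beside medians of 6 pairs and 52.4% over all windows. Esm1 held none of the 7 motifs in its window, with 3 CpG pairs. A match describes letters and is no evidence of binding.

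Igfbp4 was the member with the widest range, from 527 FPKM in the WT 5-day library to 0.372 in the KO 3-week one. The gene (chromosome 11, 99041244 to 99054392, plus strand) stood between these extremes in the KO 5-day (93.4 FPKM) and WT 3-week (115 FPKM) libraries. Each KO library was below the WT library of its time, and the longer culture was below the shorter one in each genotype. KO had 17.7% of the WT level at 5 days (17.3% to 18.2%) and 0.323% at 3 weeks (0.217% to 0.465%). About 29 reads carried the KO 3-week value, against 9834 in WT 3-week. In rank, Igfbp4 moved from 125th of all symbols in WT 5-day to 12017th in KO 3-week. On the log2(FPKM + 1) scale its genotype difference was lower at 3 weeks than at 5 days by -3.92, and it was the 1 member past the 4-fold mark in that direction, beside 0.784% of compared genes.

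Igfbp7, which carries the binding protein motif but is known to bind insulin-like growth factors weakly, had another pattern than Igfbp4. Igfbp7 (chromosome 5, 77349240 to 77408041, minus strand) stood at 0.574 FPKM (WT) and 1.25 (KO) at 5 days and 5.71 (WT) and 1.81 (KO) at 3 weeks. The highest value was in WT 3-week and the lowest in WT 5-day, so the KO libraries lay between the WT ones. The KO to WT ratio was 2.17 at 5 days (1.05 to 4.59), from about 28 and 12 reads, and at 3 weeks KO had 31.8% of WT (21.8% to 46.0%). With a pseudocount of 5 FPKM the latter difference of Igfbp7 was -0.65 and did not pass 2-fold. Its exons share 85 bases with those of Polr2b on the other strand, which stood at 35.9, 30.6, 39.9 and 25.3 FPKM, and reads of the pair cannot be told apart, as strand use in counting is not stated.

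Most of the rest of the insulin-like growth factor axis was weakly expressed. Of 17 other genes of the axis, 5 passed the minimum. At 5 days 1 of these was at least 2-fold higher in KO and 0 were lower, and at 3 weeks 2 were higher and 0 lower (medians 0.20 and 0.47). Irs2, an adaptor of the insulin and IGF receptors, stood at 1.95 FPKM (WT) and 6.16 (KO) at 5 days and 12.0 (WT) and 31.5 (KO) at 3 weeks, higher in KO at each time. Igf2r, the receptor that clears IGF-II, stood at 6.50, 10.99, 5.77 and 18.5 FPKM. The signalling receptor gene Igf1r was low, at 2.56, 3.01, 0.319 and 0.823 FPKM. The ligand genes Igf1 and Igf2 reached at most 0.0541 and 0.642 FPKM in any library, and the binding protein genes Igfbp2, Igfbp3 and Igfbp5 at most 0.0426, 0.235 and 0.106 FPKM. Igfbp1 was listed at 0 in all 4 libraries. Pappa, the gene of a protease that cuts IGFBP4, stood at 0.0128 FPKM or below.

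The growth factor genes of the list, Areg and Vegfa, were low in every library and had opposite genotype ratios in the longer culture. Areg (chromosome 5, 91139599 to 91148432, plus strand) stood at 0.240 FPKM (WT) and 0.353 (KO) at 5 days and 8.94 (WT) and 3.34 (KO) at 3 weeks. Both longer cultures lay above both shorter ones. The 5-day values rest on about 5 and 8 reads and their ratio of 1.47 had an interval from 0.421 to 5.67, so no difference was detectable at this depth. At 3 weeks KO had 37.3% of WT (28.3% to 49.1%). Vegfa (chromosome 17, 46016993 to 46032369, minus strand) stood at 3.45 FPKM (WT) and 3.36 (KO) at 5 days and 0.542 (WT) and 4.08 (KO) at 3 weeks. WT 3-week was the low library and the 3 others lay between 3.36 and 4.08 FPKM. The KO to WT ratio was 0.973 at 5 days (0.808 to 1.17) and 7.54 at 3 weeks (5.49 to 10.9), the latter from about 285 and 41 reads. With a pseudocount of 5 FPKM in place of 1, neither Areg (-0.74) nor Vegfa (0.71) passed 2-fold at 3 weeks. The summed FPKM of 4 mast cell and basophil markers, cells that also make amphiregulin, was 14.5, 24.2, 10.5 and 18.2 in the same order of libraries. Most of it was Cpa3 (14.4, 21.6, 10.2 and 10.2 FPKM), while Mcpt8 stood at 0.0754, 2.63, 0.266 and 7.93 FPKM, highest in KO 3-week. Fcer1a reached at most 0.0561 FPKM, and Ms4a2 was listed at 0 in every library. The part of such cells in the Areg values was not tested.

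The partners of Areg and Vegfa were measured in the same libraries. Of 16 other genes of the EGF family and its receptors, 4 passed the minimum, with 0 higher and 0 lower at 5 days and 1 higher and 0 lower at 3 weeks (medians 0.18 and 0.29). Rhbdf2, which brings the shedding protease ADAM17 to the cell surface, was the higher one, at 17.2 FPKM in WT and 39.7 in KO. Adam17 itself stood at 16.2 FPKM in both 5-day libraries, and at 3 weeks at 14.4 in WT and 17.7 in KO. Egfr, the amphiregulin receptor, reached 0.471 FPKM at most. The neighbouring ligand genes Ereg and Btc reached at most 0.0587 and 0.279 FPKM, and Epgn was listed at 0 in all 4 libraries.

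Of 9 other VEGF ligand and receptor genes in the tables, 4 passed the minimum, with 1 higher and 0 lower at 5 days and 1 higher and 1 lower at 3 weeks (medians -0.02 and -0.55). Nrp2, a coreceptor gene, stood at 4.85 FPKM (WT) and 2.10 (KO) at 5 days and 7.24 (WT) and 1.11 (KO) at 3 weeks, lower in KO at each time. Its relative Nrp1 stood at 1.93, 5.10, 5.14 and 4.23 FPKM, so that KO was higher at 5 days alone. Vegfc stood at 0.143, 0.183, 0.780 and 3.52 FPKM and Vegfb at 17.8, 16.6, 17.2 and 9.07 FPKM, so the ligands did not go together. The receptor genes Kdr and Flt1 reached at most 0.0251 and 0.0650 FPKM.

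Vegfa is also known as a target of the hypoxia response, and of 18 other genes of a hypoxia list 16 passed the minimum. Below it were Car9, at 0.191, 1.10, 0.192 and 1.63 FPKM, and Adm, which reached at most 0.196 FPKM. On the scale used for counting, Car9 was higher in KO by 0.82 at 5 days and by 1.14, past 2-fold, at 3 weeks. At 5 days 0 of the 16 were higher by 2-fold or more and 1 was lower, and at 3 weeks 0 were higher and 5 were lower (medians -0.29 and -0.26). At 3 weeks Hk2, which phosphorylates glucose, stood at 11.2 FPKM in WT and 2.58 in KO, and Ankrd37 at 7.53 and 3.10 FPKM. With upper-quartile or median-of-ratios scaling the lower count at 3 weeks was 2 in place of 5. P4ha2, a collagen prolyl hydroxylase gene, was lowest in WT 3-week as Vegfa was, at 4.77, 3.47, 0.669 and 1.82 FPKM, and so was Epas1, the gene of a HIF family factor, at 78.4, 94.9, 33.0 and 60.3 FPKM. On the scale used for counting, neither passed 2-fold between genotypes at either time. Hif1a, the gene of the oxygen-regulated transcription factor of this response, stood between 113 and 132 FPKM in all 4 libraries.

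The inhibitor genes Timp1 and Timp2 were the members that passed 2-fold between genotypes at neither time. Timp1 (chromosome X, 20870166 to 20874735, plus strand) stood at 1.19 FPKM (WT) and 1.22 (KO) at 5 days and 1.11 (WT) and 1.42 (KO) at 3 weeks, on about 17 to 21 reads per library. The ratios were 1.02 at 5 days (0.502 to 2.09) and 1.28 at 3 weeks (0.650 to 2.55), so no difference was detectable at this depth. Timp1 lies within the span of Syn1 on the other strand, with 0 exon bases shared. Timp2 (chromosome 11, 118301069 to 118355740, minus strand) stood at 4.38 FPKM (WT) and 3.77 (KO) at 5 days and 0.592 (WT) and 1.81 (KO) at 3 weeks, with both longer cultures below both shorter ones. Its ratio was 0.862 at 5 days (0.735 to 1.01) and 3.05 at 3 weeks (2.18 to 4.32). On the scale used for counting, that 3-week difference was 0.82 and did not reach 2-fold, while with a pseudocount of 0.1 FPKM it was 1.46 and did.

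Several proteases and other matrix genes, taken without the 10 members, stood at least 2-fold higher in KO. Of all compared genes 2.77% were higher and 0.82% lower at 5 days, and 7.97% and 8.19% at 3 weeks. The lists were chosen with earlier results of these data known, so nothing is read from their counts. The minimum is a mean over all 4 libraries, so a gene under 1 FPKM in both WT libraries can pass through KO values alone. Such a gene cannot count as lower in KO. Among genes counted as higher this held for Cd63, Adamts14, Col4a1, Col4a2, Col6a1 and Nov, and in other lists for Vegfc and Tgfb3. Of 33 other metalloprotease and inhibitor genes, 11 passed the minimum, with 2 higher and 1 lower at 5 days and 5 higher and 0 lower at 3 weeks (medians 0.33 and 0.95). Adam8, a membrane protease of leukocytes, stood at 68.3 FPKM (WT) and 208 (KO) at 5 days and 111 (WT) and 727 (KO) at 3 weeks. Adamts14, which trims procollagens, stood at 0.0672 FPKM (WT) and 1.23 (KO) at 5 days, and at 3 weeks was listed at 0 in WT and stood at 10.5 in KO. Cd63, a tetraspanin to which TIMP-1 binds, stood at 0.653, 2.11, 0.800 and 13.5 FPKM. The lower gene at 5 days was Mmp10, a matrix-degrading stromelysin, at 11.6 FPKM in WT and 4.68 in KO, while the 3-week libraries were close to each other (1.34 and 1.37 FPKM). Mmp2 and Mmp14, main targets of TIMP-2, reached at most 0.119 and 0.202 FPKM.

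Of 30 other collagen and basement membrane genes, 8 passed, with 3 higher and 0 lower at 5 days and 2 higher and 0 lower at 3 weeks (medians 0.59 and 0.34). The basement membrane collagen pair Col4a1 and Col4a2 stood highest in KO 5-day (2.96 and 5.04 FPKM) and between 0.309 and 0.738 FPKM in the 3 other libraries. The fibroblast marker sum was also highest in KO 5-day (4.70 FPKM), mainly through Pdgfrb, at 0.817 FPKM in WT 5-day and 2.81 in KO 5-day. In the same 2 libraries Col1a1 stood at 0.777 and 0.849 FPKM, Dcn at 0.150 and 0.261, and Lum at 0.0256 and 0.0469. Col1a2 stood at 0.562 and 0.489 FPKM, Col3a1 at 0.223 and 0.221, and Pdgfra at 0.0226 and 0.0138. The part of such cells in the Col4a1 and Col4a2 values was not tested. Col6a1, which lies 326 kb from Col18a1, stood at 0.177, 0.244, 0.0447 and 4.13 FPKM, high in KO 3-week alone. Lama5, a laminin chain gene, followed the culture more than the genotype, at 5.31, 13.1, 52.9 and 65.8 FPKM. The fibrillar collagen genes of fibroblasts, Col1a1, Col1a2 and Col3a1, did not exceed 0.849, 0.562 and 0.223 FPKM.

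Of 26 other proteoglycan and matricellular genes in the tables, 11 passed, with 2 higher and 0 lower at 5 days and 5 higher and 0 lower at 3 weeks (medians 0.05 and 0.14). Lgals3, the gene of the secreted lectin galectin-3, stood at 38.8 FPKM (WT) and 169 (KO) at 5 days and 55.9 (WT) and 664 (KO) at 3 weeks. Nov, a gene of the CCN family of matricellular proteins, stood at 0.664, 1.12, 0.195 and 19.9 FPKM, so KO 3-week was the high library as for Esm1. Mfge8, a bridge between dying cells and integrins, stood at 13.6, 29.4, 17.7 and 50.3 FPKM, and Emilin2 at 14.5, 15.1, 19.1 and 51.6 FPKM. Lgals1, the most abundant gene of this list, stood at 2341, 3505, 3142 and 3459 FPKM.

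**Figure D3:**
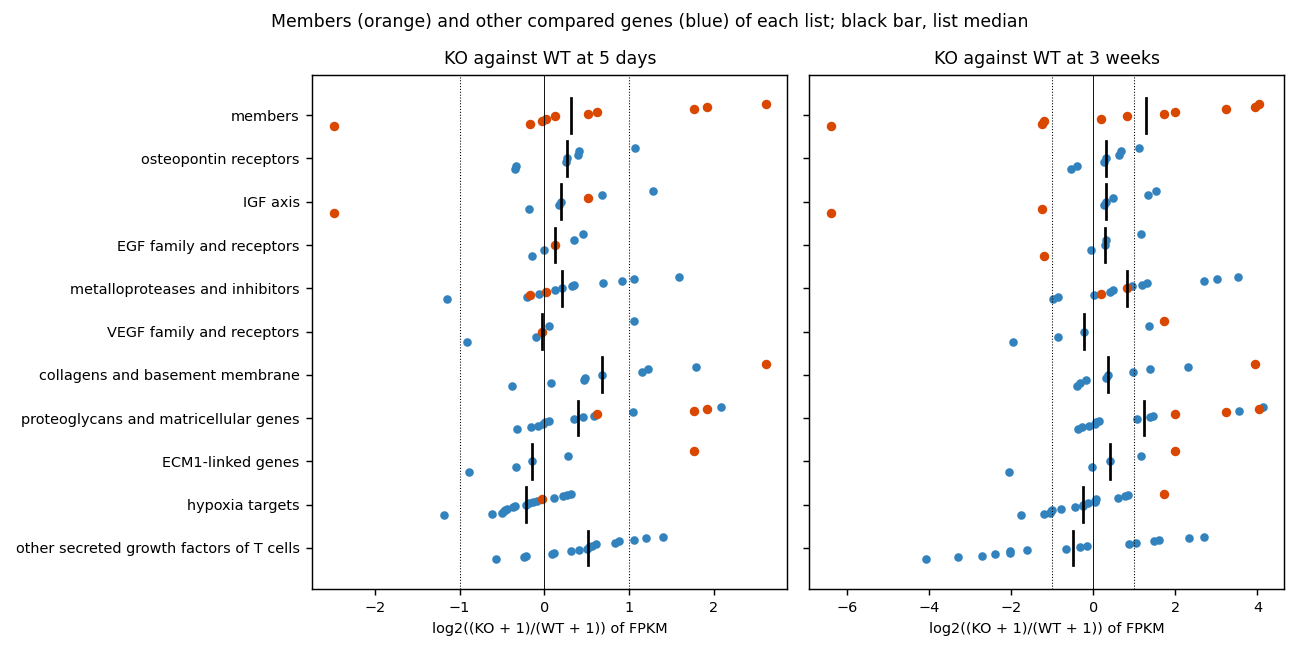
KO against WT ratios as log2((KO + 1)/(WT + 1)) of FPKM at 5 days (left) and 3 weeks (right) for the compared genes of each list, 1 point per gene, with members in orange, other genes in blue, list medians as black bars and 2-fold as dotted lines. A gene may stand in more than 1 list, and the 3-week panel spans a wider range, from Igfbp4 (-6.40) to Nov (4.13).

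Most receptors of osteopontin, and all 4 genes linked to ECM1, were expressed above the minimum. Of 9 osteopontin receptor genes 7 passed the minimum, with 1 higher and 0 lower at each time (medians 0.27 and 0.31). The higher gene was Itgb1 at 5 days, at 53.9 FPKM in WT and 115 in KO, and Itgb3 at 3 weeks, at 52.2 and 114 FPKM. Cd44, a receptor for osteopontin and hyaluronan, stood at 45.8, 36.1, 35.6 and 26.9 FPKM, and the integrin gene Itgav at 9.43, 11.5, 9.31 and 15.5 FPKM. ECM1 is known to bind the IL-2 receptor on Th2 cells and so to raise S1pr1, the receptor for leaving lymph nodes. S1pr1 stood at 72.2, 65.4, 41.9 and 40.6 FPKM, near equal between genotypes at each time. The part of Ecm1 in these values was not tested. Of the 4 genes linked to ECM1, 0 passed 2-fold at 5 days, and 1 was higher and 1 lower at 3 weeks (medians -0.24 and 0.18). Klf2, the activator gene of S1pr1, stood at 78.6, 42.0, 3.64 and 5.15 FPKM. The IL-2 receptor genes stood apart in opposite directions at 3 weeks, with Il2ra at 638 FPKM in WT and 152 in KO and Il2rb at 171 and 379 FPKM.

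Other secreted factors of T cells gave counts in both directions. Of 16 compared genes of 23, 3 were higher and 0 lower in KO at 5 days, and 5 were higher and 7 lower at 3 weeks (medians 0.52 and -0.51). On the higher side were Bmp7, a TGF-beta family ligand, at 13.3, 32.0, 9.02 and 64.1 FPKM, Csf1, the macrophage growth factor, at 4.30, 13.0, 19.9 and 62.1 FPKM, and Tgfb3 at 0.195, 1.49, 0.106 and 4.55 FPKM. Penk, the enkephalin precursor gene, stood at 233, 290.2, 771 and 2148 FPKM, and so above every member in both 3-week libraries. The 7 lower genes at 3 weeks included the Th2 cytokine genes Il4 (21.9 FPKM in WT and 6.40 in KO), Il5 (95.1 and 22.4) and Il13 (105 and 19.1). Lif stood at 67.5 FPKM in WT and 3.04 in KO, Il24 at 101 and 9.31, Csf2 at 7.73 and 1.11, and Fgf2 at 6.78 and 0.188. Each of these 7 genes was highest in WT 3-week, as Areg and Igfbp7 were.

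How the longer culture compared with the shorter one differed among the 10 genes and between the genotypes, a difference that was not tested. In WT, 4 of the 10 were at least 2-fold higher at 3 weeks (Spp1, Igfbp7, Areg and Col18a1) and 4 lower (Igfbp4, Ecm1, Timp2 and Vegfa), where 3.03% and 2.83% of compared genes were. In KO, 4 were higher (Spp1, Areg, Esm1 and Col18a1) and 2 lower (Igfbp4 and Ecm1), where 4.35% and 4.39% were. These contrasts use the same libraries as the genotype contrasts, and the cultures differed in restimulation, cytokines and antibodies as well as in time. Areg was 37.2-fold higher in the longer WT culture (15.9 to 117) and 9.46-fold higher in the longer KO culture (4.66 to 23.2). Igfbp7 was 9.94-fold higher in WT (5.44 to 19.5) and 1.46-fold higher in KO (0.885 to 2.49). Vegfa in the longer culture had 15.7% of its 5-day level in WT (10.8% to 21.7%) but 1.22 times that level in KO (1.02 to 1.45). Ecm1 had 27.1% of its 5-day level in WT and 31.8% in KO, so both ratios were of like size. Esm1 was near level in WT (ratio 1.06, interval 0.792 to 1.42) and 13.5-fold higher in KO (11.6 to 15.9).

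**Figure D4:**
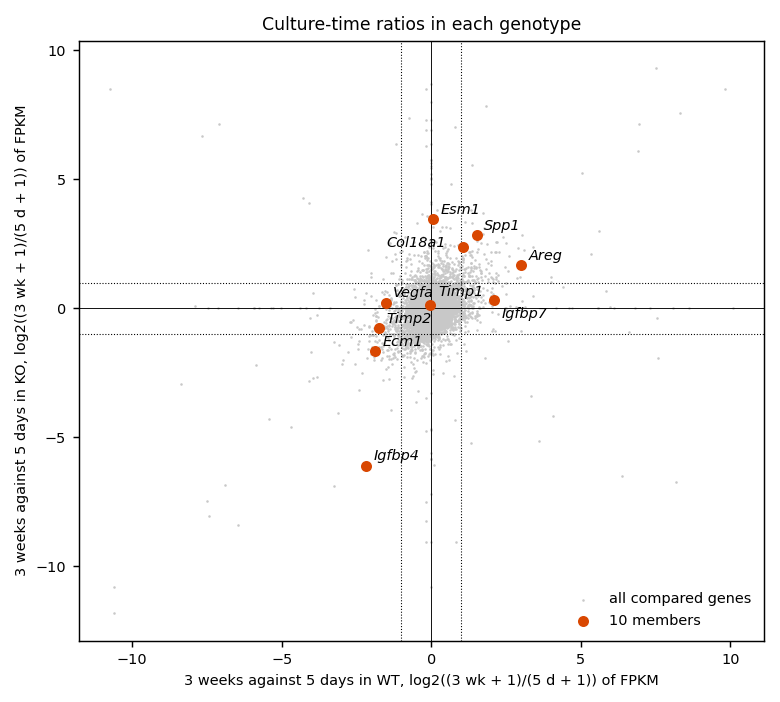
Each point is a gene, placed by the 3-week against 5-day ratio in WT (horizontal axis) and in KO (vertical axis), as log2((3 weeks + 1)/(5 days + 1)) of FPKM, with grey for all compared genes, orange for the 10 members and dotted lines at 2-fold. Among the members, Areg lies farthest right (3.00 and 1.68), Esm1 highest (0.06 and 3.46) and Igfbp4 lowest (-2.19 and -6.11).

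The genes around the members were compared by position. Within 500 kb of Esm1, 6 other coding genes passed the minimum, and 2 of them at 5 days and 4 at 3 weeks were at least 2-fold higher in KO, with 0 lower at either time. Of all compared genes 2.77% were higher at 5 days and 7.97% at 3 weeks. Gzmk and Gpx8 passed the minimum only through their KO values, so they could not have counted as lower. Nothing is read from these counts. Esm1 lies within the span of the granzyme gene Gzmk, on the other strand and with 0 exon bases shared, and 109 kb from Gzma. Gzmk stood at 0.325 FPKM (WT) and 2.09 (KO) at 5 days and 0.143 (WT) and 4.16 (KO) at 3 weeks, and Gzma at 485, 2197, 322 and 13071 FPKM. Gpx8, farther on the same side as Gzma, stood at 0.0589, 0.810, 0.0519 and 4.15 FPKM. On the scale used for counting, Gzma (2.18) and Gzmk (1.22) were past 2-fold at 5 days, and Esm1 (0.62) and Gpx8 (0.77) were not. That scale understates the ratio of a weakly expressed gene such as Gpx8.

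Within 500 kb of Igfbp4, 15 other coding genes passed, with 0 higher and 1 lower at 5 days and 1 higher and 3 lower at 3 weeks. The 1 gene lower at both times was Ccr7, the lymph node homing receptor gene 89.8 kb away, at 107, 41.5, 75.3 and 2.45 FPKM. Top2a, 17.1 kb from Igfbp4 on the other side, stood at 242, 201, 172 and 76.9 FPKM, and Tns4, between Igfbp4 and Ccr7, did not exceed 0.420 FPKM. Around Ecm1 23 genes passed, with 0 higher and 0 lower at 5 days and 0 higher and 1 lower at 3 weeks, and its next gene Tars2, 0.406 kb away, stood between 19.6 and 21.8 FPKM in all 4 libraries. Beside Spp1, the bone matrix genes of the same family, Mepe and Ibsp, were listed at 0 in all 4 libraries. Pkd2, 18.4 kb on the other side of Spp1, stood at 0.764, 2.83, 3.88 and 6.85 FPKM. Next to Timp2, Lgals3bp, the gene of a galectin-binding secreted protein, stood at 69.7, 186, 191 and 582 FPKM. The neighbours were looked up after the members' values were known.

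**Figure D5:**
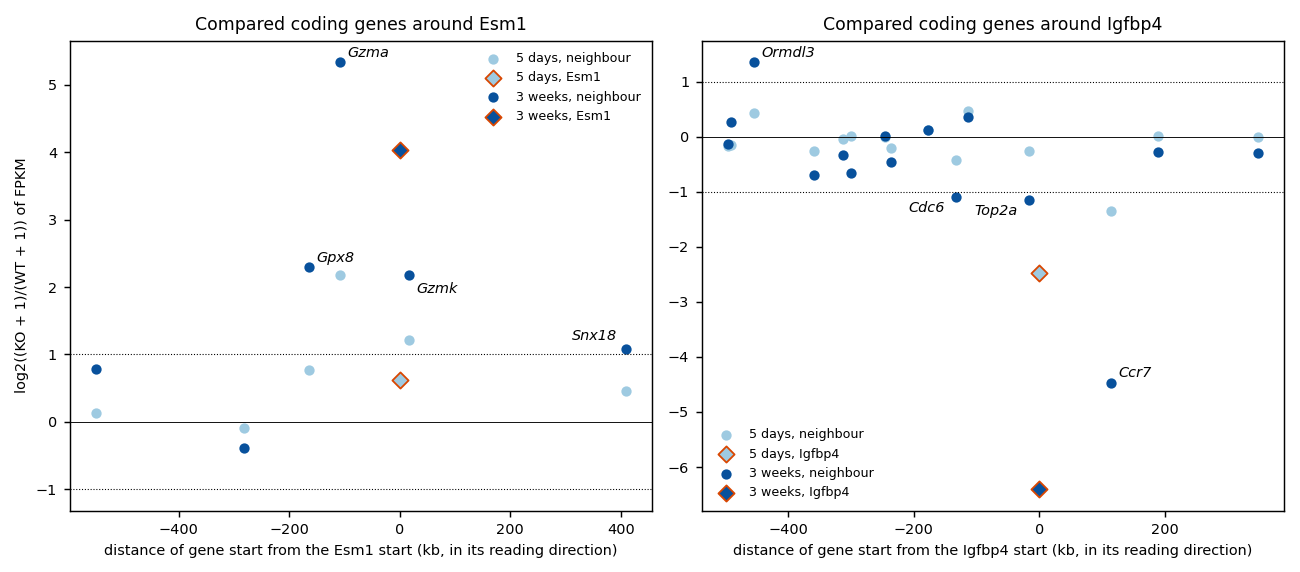
KO against WT ratio, as log2((KO + 1)/(WT + 1)) of FPKM, of compared coding genes around Esm1 (left) and Igfbp4 (right) against the distance in kb between gene starts, light blue for 5 days and dark blue for 3 weeks, with diamonds for Esm1 and Igfbp4 themselves and dotted lines at 2-fold. Gzma (5.34 at 3 weeks) stands above Esm1 (4.03), and Ccr7 (-4.47) is the neighbour nearest to Igfbp4 (-6.40) in ratio.

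The genes with the most similar profile were found for the 5 members with a genotype pattern. Likeness was the root mean square difference of log2(FPKM + 1), centred on each gene's mean, over the 4 libraries and among 10806 other genes without short RNAs. The nearest to Spp1 were Fgl2, a secreted fibrinogen-like protein gene (difference 0.24), and B4galnt4 (0.26). B4galnt4 was also near Col18a1 (0.28), for which Nkg7, a granule membrane gene, was nearest (0.23), at 14.1, 88.2, 43.5 and 595 FPKM. For Esm1 they were C5ar1, the complement C5a receptor gene (0.14), and Ramp3, a receptor partner gene (0.14), and for Ecm1 Ly6k (0.24) and H2-Ab1 (0.27). Igfbp4 had no near match, since the closest genes, Ccr7 (1.31) and Cd5 (1.44), differed from it by more than 1 log2 unit. Among the 10 members the closest pairs were Spp1 with Col18a1 (0.42), Timp2 with Vegfa (0.44), Spp1 with Esm1 (0.58) and Igfbp7 with Areg (0.58). With 4 libraries, many genes share a profile.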

How the data were processed

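RNA was sequenced in 4 libraries of mouse Th2 cells, 1 in each of 4 groups read from the sample titles. A stranded TruSeq mRNA kit was used, per the labels' protocols. The authors deposited 1 FPKM value per line; that unit rests on the values and on Cufflinks 2.0.2, which the submitters' processing notes list with TopHat 1.3.2, Bowtie 0.12.8 and mm10. For the annotation, any filter and use of strand: not given in the sources used here. In each file there were 23746 lines. The 240 symbols on more than 1 line (702 lines) were summed, and 1 symbol with an unreadable cell was left out, which left 23283.

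Depth was inferred from low values of single-transcript genes (GENCODE M21), with 200 bases subtracted from its length. It was set where the largest share of values under 5.5 reads lay within 0.05 of a whole number. That share was 59.2% to 61.6%, and even spread at a fixed depth would give 10%. Since the depth was chosen to make the share largest, the share is no separate support for it. Reads of a member use its longest basic coding transcript and are approximate. FPKM was not treated as a count, and a fit assuming equal genotype differences at both times was not made.

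Compared genes had a mean of at least 1 FPKM. Ratios used a pseudocount of 1 FPKM and were called at 2-fold, or 4-fold for the difference of genotype ratios. Named genes were the 10 members, Men1, up to 4 compared genes per list and contrast past 2-fold, members' receptors and the 2 genes nearest in profile; others named were chosen after their values were seen. Members and lists were chosen with earlier results of these data known. Python 3.11.15, pandas 2.3.3 and scipy 1.17.1 were used. Alternatives were other pseudocounts, filters, scalings, line handling and leaving out 166 short RNA symbols.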

Additional observations from a re-analysis of the deposited data

Results flagged for a closer look

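Igfbp7 had opposite genotype ratios at the 2 times, each with a counting interval that excluded 1. KO was higher at 5 days (2.17, interval 1.05 to 4.59) and lower at 3 weeks (0.318, interval 0.218 to 0.460), a difference of -1.77 on the log2(FPKM + 1) scale. The 5-day values rest on about 12 and 28 reads. With 1 library per group the difference was not tested.

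Vegfa had opposite culture ratios in the 2 genotypes, again beyond counting error in each. The longer culture was lower in WT (0.157, interval 0.108 to 0.217) and higher in KO (1.22, interval 1.02 to 1.45), a difference of 1.75. The KO shift was 0.22 on the log2(FPKM + 1) scale, near the upper quartile of 0.21 over all compared genes, and did not pass 2-fold. The difference between genotypes was not tested, and the cause of either pattern was not tested.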

How the results depend on the processing

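Each group had 1 library and the labels give no replicate numbers, so no paired analysis was possible. An additive fit of genotype and culture was not made, and leaving out a library would remove its group. The sign of called members held under each of the 8 alternatives that kept them; the mean filter of 5 FPKM gave no value for Areg, Igfbp7, Timp1, Timp2 and Vegfa. Spp1, Igfbp4, Ecm1, Esm1 and Col18a1 kept their genotype calls under all of them. With a pseudocount of 5 FPKM, members at least 2-fold lower in KO at 3 weeks numbered 1 in place of 3, members higher in the longer WT culture 2 in place of 4, and members lower there 2 in place of 4. With a mean filter of 5 FPKM, which 5 members pass, these counts were also 1, 2 and 2. With a pseudocount of 0.1 FPKM, members past 4-fold in the difference of genotype ratios were 2 higher and 2 lower, in place of 1 each.

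Over all compared genes, a pseudocount of 0.1 FPKM gave 499 higher and 143 lower at 5 days (304 and 90 as reported), 477 lower in the longer WT culture (311), and 233 higher and 165 lower in the difference (138 and 86). A pseudocount of 5 FPKM gave 122 higher and 56 lower at 5 days, 458 and 440 at 3 weeks (874 and 899), 151 higher and 125 lower in the longer WT culture (332 and 311), 254 and 214 in the longer KO culture (477 and 482), and 73 higher in the difference. The filter of 5 FPKM gave 201 higher at 5 days, 554 higher at 3 weeks, 185 lower in the longer WT culture and 307 higher in the longer KO culture. Without short RNAs, 48 were lower at 5 days, and 87 were higher and 41 lower in the difference. Upper-quartile scaling moved the median of all genes at 3 weeks from -0.08 to 0.03 and the split from 874 higher and 899 lower to 1036 and 680 (49.3% and 60.4% higher). No call of a member changed with scaling. Of the values for single genes and lists, 1410 held and 165 moved. Depth limits Areg at 5 days and Timp1 throughout.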
